A study of Mus musculus with 6 samples.

Results

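Ccl2, Ccl3, Ccl4, Ccl5, Ccl6, Ccl7, Ccl8, Ccl9 and Ccl12, 9 inflammatory members of the mouse CC chemokine family, were followed through single-cell libraries of bone marrow, spleen and tumor. They were chosen by name and not by a cut on measured values, but with earlier results of these data known. All 9 were listed in each library, among 32285 genes in all.

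CC chemokines are small secreted proteins that draw leukocytes along a gradient through G protein-coupled receptors. Ccl2, Ccl7 and Ccl12 act on Ccr2, the receptor by which monocytes leave the marrow, and mouse Ccl8 acts on Ccr8, which some T cells carry. Ccl3 and Ccl5 are ligands of Ccr1, which neutrophils carry, and Ccl4 is a close relative of Ccl3. Ccl6 and Ccl9 are rodent chemokines of myeloid cells that bind Ccr1. In tumors, chemokines of this family are known for bringing in monocytes, which become macrophages there.

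The libraries came from mice bearing tumors of EMT6, a mammary carcinoma cell line of BALB/c origin. The first group was labelled Cysltr1-deficient, written KO here, and the other was BALB/c WT. The Cysltr1 protein is a leukotriene receptor of leukocytes. All mice of both groups carried the tumor, so neither group shows marrow or spleen without it. The genotype label is that of the mice, and the tumor line was EMT6 in both groups. There was 1 library for each tissue and genotype, 6 in all, each from a pool of 3 mice. Marrow was enriched for hematopoietic progenitors, and spleen and tumor for CD45+ cells, by selection kits. The labels do not give the age of the mice, the day of sampling or the deleted part of Cysltr1.

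With 1 library in each group there was no replicate check and no test, and intervals given here are 95% exact intervals for counting error only. Cysltr1 itself went against the labels in marrow and spleen. It was at 24.5 CPM in the KO-labelled and 4.76 CPM in the WT-labelled marrow library, at 33.4 and 7.07 CPM in the KO-labelled and WT-labelled spleen libraries, and at 7.28 and 9.73 CPM in the KO-labelled and WT-labelled tumor libraries. A tag read outside the deleted part checks nothing, so the libraries are named by their labels throughout. After filtering, 4992 to 8300 cells were kept per library, with medians of 2374.5 to 12674 UMIs (unique transcript molecules) per cell. Cells were assigned to classes by marker genes. In the tumor, 37.6% of cells in the KO-labelled library and 39.9% in the WT-labelled library carried too few markers for any class. Between any 2 libraries 41 to 96 cell barcodes were shared, at most 1.3% of the smaller library.

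The 9 genes lie in 2 groups on chromosome 11 of the mouse build mm10 (GRCm38). Ccl2, Ccl7, Ccl12 and Ccl8 follow each other on the plus strand between 82035571 and 82116799, a span of 81229 bases. Ccl5, Ccl9, Ccl6 and Ccl3 on the minus strand and Ccl4 on the plus strand lie between 83525778 and 83664683, a span of 138906 bases. No pair of the 36 pairs of members shared a stretch of 50 bases between their transcripts, so counting could not readily split reads between them. Ccl2 is overlapped on the other strand by Gm17268, which had 0 UMIs in all 6 libraries, and Ccl6 by E230016K23Rik, which had 9 to 38 UMIs per library.

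RefSeq's table of promoters for GRCm38.p6 matched 5 of the 9 members. The sequences of 4 of them, in 2 pairs of neighbours, are shown as the 250 bases before the RefSeq start, read 5′ to 3′ on the gene's strand. Ccl12 and Ccl8 are printed because both were near 0 outside the tumor, and Ccl6 and Ccl9 because mature neutrophils were among the classes highest in Ccl6 and among the lower myeloid classes in Ccl9, although only 9246 bases lie between the genes. Capitals mark matches, on either strand, to TATAAAA, to GAGGAA (a core bound by PU.1), to the NF-kB word (GGG, any 5 bases, CC) and to TGANTCA (AP-1).
Ccl12, chr11:82101595-82101844, plus strand: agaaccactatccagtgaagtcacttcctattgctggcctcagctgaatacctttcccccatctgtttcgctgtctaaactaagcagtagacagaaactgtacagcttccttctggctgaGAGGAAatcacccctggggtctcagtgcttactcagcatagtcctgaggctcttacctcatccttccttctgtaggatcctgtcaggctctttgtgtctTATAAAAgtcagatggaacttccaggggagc
Ccl8, chr11:82114935-82115184, plus strand: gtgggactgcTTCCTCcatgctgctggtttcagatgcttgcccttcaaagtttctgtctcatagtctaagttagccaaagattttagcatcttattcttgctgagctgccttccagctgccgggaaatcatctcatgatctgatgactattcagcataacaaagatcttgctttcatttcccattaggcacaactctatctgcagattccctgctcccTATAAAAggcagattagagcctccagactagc
Ccl6, chr11:83593088-83593337, minus strand: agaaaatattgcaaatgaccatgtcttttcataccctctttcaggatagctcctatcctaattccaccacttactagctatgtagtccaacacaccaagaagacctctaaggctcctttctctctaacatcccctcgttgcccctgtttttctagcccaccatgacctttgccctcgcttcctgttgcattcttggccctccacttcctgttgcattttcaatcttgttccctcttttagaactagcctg
Ccl9, chr11:83578637-83578886, minus strand: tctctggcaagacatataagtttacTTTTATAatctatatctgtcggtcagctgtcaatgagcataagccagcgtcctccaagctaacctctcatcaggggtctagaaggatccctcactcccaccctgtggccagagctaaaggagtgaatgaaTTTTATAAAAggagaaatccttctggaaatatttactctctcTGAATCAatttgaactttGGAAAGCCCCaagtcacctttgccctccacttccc

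Ccl12 and Ccl8 hold TATAAAA at almost the same place, its first base 31 and 32 bases before the start, and 5.3% of the 27025 promoter windows of the table hold that word. Each holds 1 GAGGAA match, which 23.1% of windows hold. Aligned to each other these 2 windows matched at 153 of 253 columns, with a score of 43.5, whereas the other 9 pairs among the 5 promoters scored at most 19. Ccl9 holds TATAAAA at 3 places, 2 of them overlapping on opposite strands, 1 AP-1 word and 1 NF-kB word, which 6.87% and 45.4% of windows hold. The Ccl6 window held none of these words, nor TTCNNNGAA (STAT), TTGCNNAA (C/EBP) or the interferon-stimulated response element, which were also searched.

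Levels were UMIs scaled to the same total in each class (CPM), from UMIs summed over its cells. In each tissue the class with the highest level of a member was compared between the genotypes wherever both libraries held at least 100 UMIs of the gene in their classes. It was the same class in 20 of 21 such cases, the exception being Ccl7 in the tumor. Tumor monocytes and macrophages led for Ccl2, Ccl7, Ccl12 and Ccl8, NK cells or basophils and mast cells for Ccl3 and Ccl4 outside the tumor, and NK cells or T and NK cells pooled for Ccl5. With 1 more marker required the leading Ccl5 class of the WT-labelled tumor was monocytes, at 146.4 CPM against 114.6 CPM in T and NK cells.

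**Figure D1:**
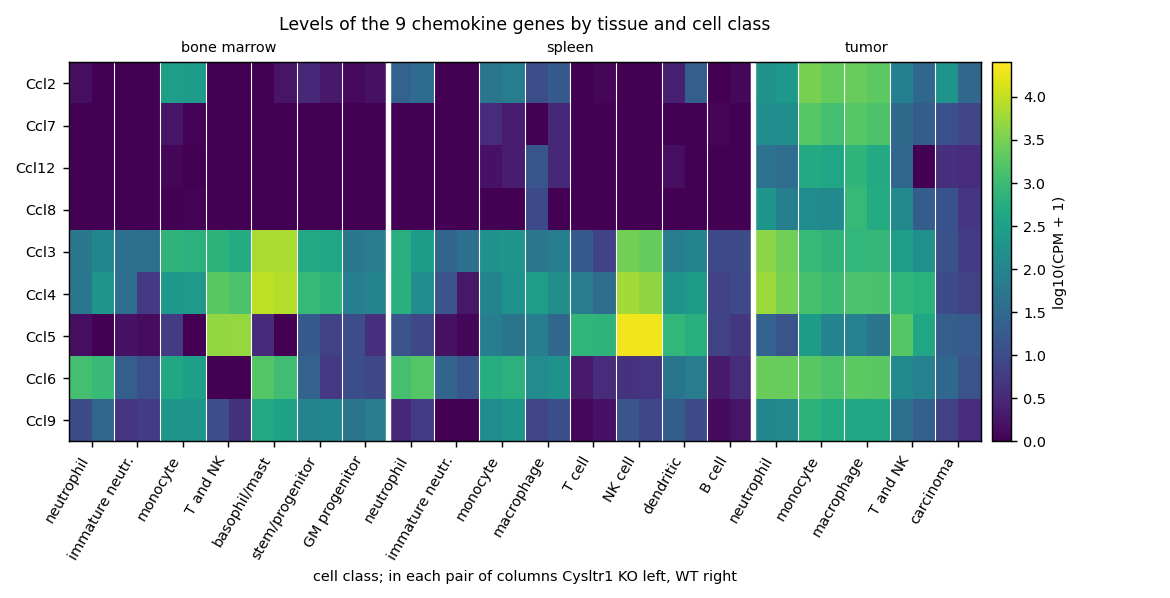
Level of the 9 chemokines in each class of cells, as log10(CPM + 1) by colour, with a column for each class and library and the KO-labelled library left of the WT-labelled one. Ccl2, Ccl7 and Ccl12 are high in tumor monocytes and macrophages and Ccl8 in tumor macrophages, whereas Ccl5 is highest in spleen NK cells and in the T and NK cells of marrow and tumor, and Ccl3 and Ccl4 in marrow basophils and mast cells, spleen NK cells and tumor neutrophils.

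Ccl2, the main Ccr2 ligand, was made in the tumor mostly by macrophages and monocytes. In macrophages it was at 2410 CPM (95% interval 2372 to 2449) in the KO-labelled and 1921 CPM (1888 to 1954) in the WT-labelled library, and 74.5% and 73.8% of those cells, KO-labelled and WT-labelled, held at least 1 UMI. In monocytes it was at 3137 CPM in the KO-labelled and 2272 CPM in the WT-labelled tumor. Macrophages were 13.1% of the cells of the KO-labelled and 13.4% of the WT-labelled tumor library and held 50.1% and 62.5% of its Ccl2 UMIs. A class of 66 fibroblasts in the WT-labelled tumor, gated there in numbers above the minimum of 50 cells, was at 805.8 CPM.

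In marrow and spleen the highest level of Ccl2 was in monocytes. Marrow monocytes were at 279.9 CPM (267.1 to 293.3) in the KO-labelled and 264.5 CPM (253.5 to 275.8) in the WT-labelled library. They held 95.1% of the Ccl2 UMIs in the KO-labelled and 85.9% in the WT-labelled marrow. With every cell thinned to 1000 UMIs, 19.7% of marrow monocytes in the KO-labelled and 17.7% in the WT-labelled library had a Ccl2 UMI, against 0 of 515 and 0 of 222 unthinned immature neutrophils, which allows shares of cells with a UMI of up to 0.714% and 1.65% but does not limit the cells that express the gene. Median depths of these monocytes were 6564 UMIs in the KO-labelled and 15424 in the WT-labelled library. Spleen monocytes were lower than marrow monocytes, at 53.4 CPM in the KO-labelled and 68.8 CPM in the WT-labelled library. The more numerous spleen neutrophils held 31.3% of the Ccl2 UMIs of the KO-labelled and 42.9% of the WT-labelled spleen, and monocytes 42.7% and 25.9%.

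Ccl7 and Ccl12, the other Ccr2 ligands, and Ccl8 were found almost entirely in the tumor. The whole spleen libraries held 10 and 17 UMIs of Ccl7, 12 and 5 of Ccl12 and 6 and 0 of Ccl8, KO-labelled before WT-labelled, and the marrow libraries 5 and 3 of Ccl7, 1 and 5 of Ccl12 and 0 and 1 of Ccl8. In tumor macrophages Ccl7 was at 1842 CPM in the KO-labelled and 1466 CPM in the WT-labelled library, and in monocytes at 1842 and 1204 CPM in the same order. Ccl12 was at 761.5 CPM in KO-labelled and 490.4 CPM in WT-labelled macrophages. It was at 484.3 CPM in KO-labelled and 399.1 CPM in WT-labelled monocytes.

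Ccl8 was lower in tumor monocytes than in macrophages, at 135.4 CPM in the KO-labelled and 119.8 CPM in the WT-labelled library. With classes from clusters this turned round in the KO-labelled tumor, to 854.5 CPM in monocytes and 547.7 CPM in macrophages. In macrophages it was at 877 CPM (854.1 to 900.3) in the KO-labelled and 510.3 CPM (493.6 to 527.5) in the WT-labelled library. Most of its UMIs lay in few macrophages: the tenth of cells with the most Ccl8 UMIs held 92.1% of them in the KO-labelled and 95.2% in the WT-labelled library. After thinning, 129 of 718 KO-labelled and 122 of 989 WT-labelled macrophages held a Ccl8 UMI. Among thinned tumor macrophages Ccl7 was detected in 62.6% of cells with Ccl2 and 22.2% of cells without it in the KO-labelled library, and in 61.1% and 20.2% in the WT-labelled library. In thinned KO-labelled carcinoma cells none of 58 cells with Ccl2 held Ccl7, against 1.24% of the cells without it.

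These 4 chemokines were also detected in other tumor classes, below macrophages, and for Ccl8 in the KO-labelled tumor above monocytes. Ccl2 in tumor neutrophils was at 175.1 CPM in the KO-labelled and 222.1 CPM in the WT-labelled library, Ccl7 at 138.7 and 143.0 CPM, and Ccl8 at 205.3 and 75.9 CPM. Macrophage markers were detected there too: 12 of the 13 had UMIs in tumor neutrophils, Spic was at 0, and the list summed to 1093 CPM in the KO-labelled and 1266 CPM in the WT-labelled library, against 11810 and 13490 CPM in macrophages themselves. The part of macrophage RNA in these values was not tested. In carcinoma cells the macrophage markers summed to 221.1 and 205.6 CPM, KO-labelled and WT-labelled, of which Vcam1 alone was 150.1 and 132.0 CPM.

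**Figure D2:**
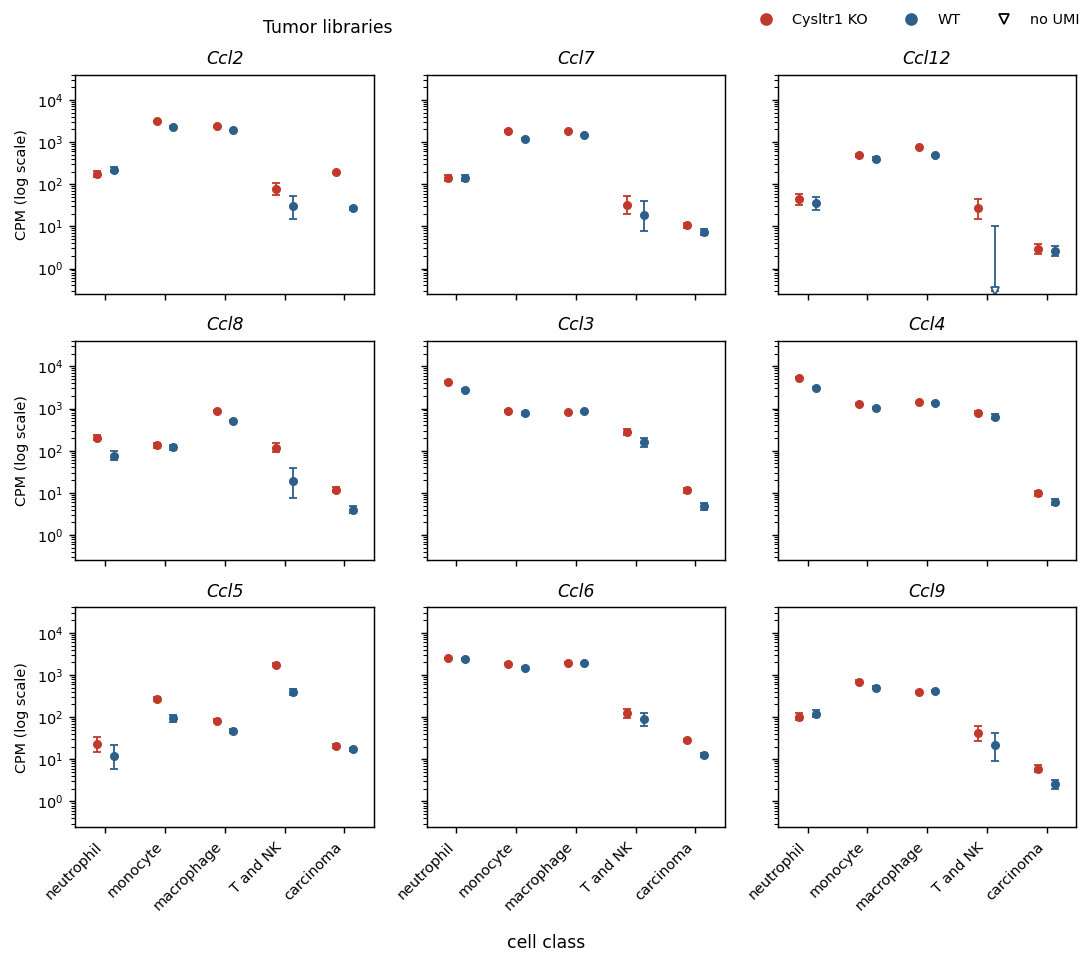
Level of the 9 chemokines in 5 classes of tumor cells, in CPM on a log axis, with the KO-labelled library left of the WT-labelled library for each gene and 95% counting intervals as bars; an open triangle marks a class with no UMI. Macrophages and monocytes are above the other classes for Ccl2, Ccl7 and Ccl12, neutrophils for Ccl3 and Ccl4, and the Ccl2 level of carcinoma cells differs between the libraries, 191.5 against 27.1 CPM.

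Ccl3 and Ccl4, known as macrophage inflammatory proteins, reached their highest level in a different class in each tissue. In marrow it was basophils and mast cells, at 6919 CPM of Ccl3 in the KO-labelled and 7067 CPM in the WT-labelled library, and 9581 and 8236 CPM of Ccl4. They were 5.13% of marrow cells in the KO-labelled and 4.29% in the WT-labelled library, and held 57.5% and 43.9% of the Ccl4 UMIs. In spleen it was NK cells, at 2923 and 2258 CPM of Ccl3 and 6209 and 4583 CPM of Ccl4, KO-labelled before WT-labelled. In the tumor neutrophils were highest, at 4363 CPM (4242 to 4487) of Ccl3 in the KO-labelled and 2809 CPM (2701 to 2920) in the WT-labelled library, and 5446 CPM (5310 to 5584) and 3143 CPM (3029 to 3260) of Ccl4.

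After thinning, Ccl3 was detected in 67.2% of tumor neutrophils in the KO-labelled and 60.3% in the WT-labelled library, and Ccl4 in 54.9% and 46.2%. Carcinoma cells, thinned alike, showed Ccl3 in 1.53% and 0.617% and Ccl4 in 0.764% and 0.617%, KO-labelled and WT-labelled. Unthinned, Ccl3 was in 71.2% and 62.2% and Ccl4 in 55.4% and 45.6% of tumor neutrophils, with median depths of 1407 UMIs in KO-labelled and 1281.5 in WT-labelled neutrophils and 24681 and 21194 in carcinoma cells. The 2 genes lie 13229 bases apart, and cells with Ccl3 more often held Ccl4 as well. In thinned tumor neutrophils Ccl4 was seen in 63.5% of cells with Ccl3 and 37.4% of cells without it in the KO-labelled library, and in 56.2% and 31.0% in the WT-labelled library.

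Tumor macrophages and monocytes also made both genes. Macrophages were at 806.5 CPM of Ccl3 in the KO-labelled and 851.1 CPM in the WT-labelled library, and at 1404 and 1368 CPM of Ccl4. Marrow stem and early progenitor cells carried Ccl4 at 886.8 CPM in the KO-labelled and 734.0 CPM in the WT-labelled library. Marrow monocytes were at 716.6 CPM of Ccl3 in the KO-labelled and 652.8 CPM in the WT-labelled library, and at 223.6 and 240.6 CPM of Ccl4. Cells without a class held 30% of the Ccl3 UMIs in the KO-labelled and 20.3% in the WT-labelled tumor library.

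Ccl5, which T and NK cells make after activation, was highest in NK cells, or in T and NK cells pooled, in every tissue. Spleen NK cells were at 19900 CPM in the KO-labelled and 20160 CPM in the WT-labelled library, and 99.6% and 98.0% of them held a UMI. Spleen T cells were at 793.3 and 721.9 CPM, KO-labelled and WT-labelled, and this level came from few cells. After thinning, 8.50% of KO-labelled and 8.18% of WT-labelled spleen T cells had a Ccl5 UMI, against 0.563% and 0.516% of B cells; unthinned 13.1% and 11.5% of T cells did, at median depths of 3978 and 3050 UMIs in T cells and 3407.5 and 2691 in B cells. Marrow T and NK cells, pooled here, were at 4772 CPM in the KO-labelled and 5110 CPM in the WT-labelled library.

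Tumor T cells were lower for Ccl5 than spleen NK cells and differed between the libraries. They were at 1282 CPM (1169 to 1403; 471 UMIs in 129 cells) in the KO-labelled and 91.3 CPM (54.1 to 144.3; 18 UMIs in 54 cells) in the WT-labelled library. The shares of thinned T cells with a Ccl5 UMI were closer, 18.9% in the KO-labelled and 13% in the WT-labelled library. Classes other than lymphocytes also carried Ccl5: tumor monocytes were at 265.4 CPM in the KO-labelled and 94.1 CPM in the WT-labelled library, and spleen dendritic cells at 824.7 and 599.9 CPM. In tumor macrophages, at 83.4 and 47.6 CPM of Ccl5, KO-labelled and WT-labelled, the tenth of cells with the most held all of the UMIs.

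Ccl6 and Ccl9, neighbours that share Ccr1, were both carried by monocytes, but mature neutrophils differed between them. Ccl6 was high in mature neutrophils of all tissues, at 1214 and 970.3 CPM in marrow, 1284 and 1640 CPM in spleen and 2499 and 2366 CPM in tumor, the KO-labelled library before the WT-labelled one in each. Immature neutrophils had far less, 20.1 and 10.9 CPM in marrow and 26.3 and 14.8 CPM in spleen. Monocytes had Ccl6 at 413.8 and 307.8 CPM in marrow, 545.6 and 659.4 CPM in spleen and 1845 and 1489 CPM in tumor. Spleen neutrophils held 70.8% of the Ccl6 UMIs of the KO-labelled and 79.9% of the WT-labelled spleen.

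Ccl9 was lower in mature neutrophils than in monocytes of the same tissue, at 8.97 and 27.9 CPM in marrow, 2.27 and 4.92 CPM in spleen and 102.2 and 119.9 CPM in tumor, KO-labelled before WT-labelled. Monocytes carried it, at 203 and 205.3 CPM in marrow, 134.8 and 200 CPM in spleen and 701.2 and 501.2 CPM in tumor. Tumor macrophages held both genes, Ccl6 at 1947 and 1915 CPM and Ccl9 at 399 and 421.2 CPM, while spleen macrophages had Ccl6 at 133.9 and 184.4 CPM and Ccl9 at 7.44 and 10.6 CPM. Marrow basophils and mast cells had the highest marrow levels of both, 1646 and 1130 CPM of Ccl6 and 490.9 and 347.9 CPM of Ccl9. For Ccl6 in the WT-labelled marrow, neutrophils were ahead without the mitochondrial limit, 963.2 against 958.4 CPM, and with 1 more marker, 970.8 against 934.9 CPM.

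Set against spleen, tumor cells of the same class had more of nearly every member, in both genotypes. A member was called where the 2 libraries differed by at least 1.5-fold with 95% intervals that did not overlap, among genes with at least 100 UMIs over both libraries. In the KO-labelled pair, neutrophils were called higher in tumor for 7 of 7 members that could be read, monocytes for 9 of 9, macrophages for 8 of 9 and T cells for 3 of 3. In the WT-labelled pair the counts were 5 of 6, 9 of 9, 8 of 9 and 2 of 3, with Ccl5 in T cells called lower. Of all genes read, those called higher in tumor were 26.3% in neutrophils, 15% in monocytes, 21.2% in macrophages and 13.8% in T cells of the KO-labelled pair, and 27.7%, 17.5%, 16.8% and 10.8% of the WT-labelled pair. Those called lower were 39.5%, 25.0%, 25.9% and 9.87% in the KO-labelled pair and 32.1%, 22.3%, 22.9% and 8.21% in the WT-labelled pair.

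In neutrophils Ccl3 and Ccl4 were many-fold higher in the tumor than in the spleen. Ccl3 was 7.70-fold higher in the KO-labelled tumor than the KO-labelled spleen and 10.8-fold higher in the WT-labelled pair, and Ccl4 8.90-fold and 22.4-fold. Ccl9 was 44.95-fold and 24.3-fold higher in tumor neutrophils, from a spleen level under 5 CPM. Ccl7, with no UMI in spleen neutrophils, was at least 122-fold higher in the KO-labelled and at least 281-fold higher in the WT-labelled tumor, taking 3 UMIs in the spleen class as the floor. The Ccl7 and Ccl9 calls ended with thinned cells in both pairs. Macrophage markers in neutrophils summed to 1093 and 1266 CPM in tumor and 193.3 and 189.7 CPM in spleen, KO-labelled before WT-labelled. The part of macrophage RNA in these ratios and calls was not tested. Ccl6 was 1.95-fold higher in the KO-labelled tumor and was not called in the WT-labelled one, at 2366 CPM in tumor against 1640 CPM in spleen.

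Macrophages of the tumor were higher for 8 members, most by over 10-fold. Ccl2 was 231-fold higher (112 to 576) in the KO-labelled and 113-fold higher (57.5 to 262) in the WT-labelled tumor, against 7 and 8 UMIs in the spleen class. Ccl4 was 4.74-fold higher in the KO-labelled pair, or 16.2-fold without the top cells, and 9.35-fold higher in the WT-labelled pair. Ccl12 was 56.9-fold higher in the KO-labelled pair, and 231-fold (41.5 to 9139) in the WT-labelled pair against a single spleen UMI, or 13-fold with thinned cells. Ccl3 was 15.1-fold and 11.5-fold higher, Ccl6 14.5-fold and 10.4-fold and Ccl9 53.7-fold and 39.7-fold. These ratios moved with the alternatives. In the KO-labelled pair Ccl3 ranged from 5.90-fold with doublets kept to 33.9-fold with averaged cells. Ccl9 ranged there from 16.3-fold with thinned cells to 128-fold without the top cells. Some spleen counts were low, and the cause of the moves was not tested. These are different kinds of macrophage by their other genes: the spleen class had Ccr3 at 664.8 and 659.3 CPM and Ccl24 at 397.1 and 483.3 CPM, with eosinophil markers at 0 and 6.36 CPM, KO-labelled and WT-labelled. In monocytes Ccl2 was 58.8-fold and 33.0-fold higher in tumor and Ccl4 13.8-fold and 5.93-fold.

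T cells were called higher in tumor for Ccl3 and Ccl4 in both pairs, but a few cells carried these calls. Ccl3 was 18.1-fold and 35.1-fold higher, or 6.095-fold and 21.5-fold without the top cells, where the WT-labelled call ended. Ccl4 was 13.7-fold and 31.2-fold higher, or 6.25-fold and 8.36-fold. Ccl5 was 1.62-fold higher in T cells of the KO-labelled tumor than of the KO-labelled spleen, and 0.127-fold as high (0.0749 to 0.2) in the WT-labelled pair. With classes from clusters the WT-labelled ratio was 0.689, which ends the call, and without the cell with the most Ccl5 UMIs the KO-labelled ratio was 1.32, which ends it too. Scaling by TMM factors moved all genes by 0.33 and 0.72 on the log2 scale in neutrophils and by −0.44 and −0.48 in macrophages, −0.26 and −0.11 in monocytes and 0.25 and 0.27 in T cells, in the KO-labelled and WT-labelled pairs, and turned no direction given here but ended the Ccl5 call in the KO-labelled T cells.

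**Figure D3:**
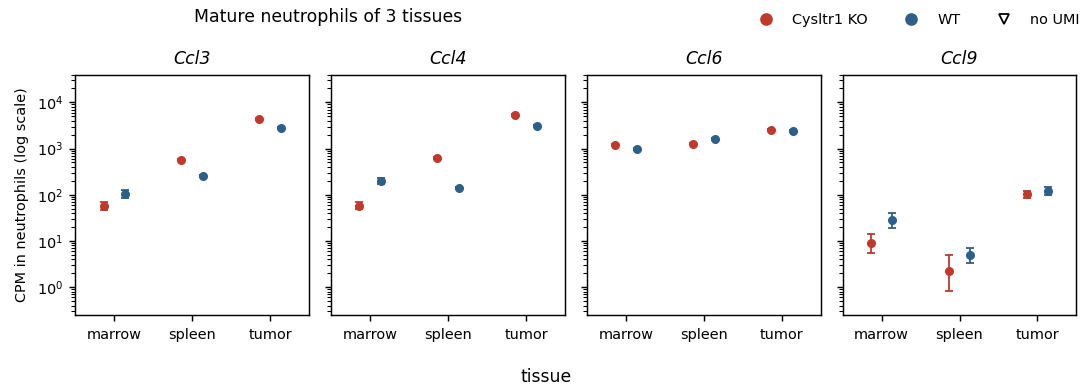
Ccl3, Ccl4, Ccl6 and Ccl9 in mature neutrophils of marrow, spleen and tumor, in CPM on a log axis, with the KO-labelled library left of the WT-labelled one and 95% counting intervals as bars. Ccl3 reaches 4363 and 2809 CPM in tumor neutrophils, whereas Ccl6 is near 1000 CPM or above in all 3 tissues and Ccl9 is lowest in spleen.

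Between spleen and marrow the members moved in both directions. Neutrophils of the KO-labelled spleen were 9.87-fold higher for Ccl3 and 10.6-fold higher for Ccl4 than those of the KO-labelled marrow, 2 calls among 3 members read, where 42.3% of all genes were called higher and 11.7% lower. In the WT-labelled pair Ccl3 was 2.50-fold higher (2.05 to 3.06), Ccl6 1.69-fold higher and Ccl2 at least 11.5-fold higher, 3 of 4 members, where 30.3% of genes were called higher and 9.08% lower. Each of these calls ended under an alternative, Ccl3 at 1.17-fold with doublets kept, Ccl6 at 1.38-fold with thinned and 1.28-fold with averaged cells, and Ccl2 at 2.87-fold with thinned cells. Ccl4 in the WT-labelled pair had a ratio of 0.713, or 1.73 without the cell with the most UMIs. A single marrow neutrophil held 125 of the 205 Ccl4 UMIs of that class. TMM scaling moved all genes in the KO-labelled neutrophil pair by 0.32 on the log2 scale.

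Spleen monocytes had less of the monocyte attractant than marrow monocytes. Ccl2 was at a ratio of 0.191 in the KO-labelled and 0.260 in the WT-labelled pair, and Ccl3 at 0.246 and 0.298, both called lower. Ccl4 at 0.422 and Ccl9 at 0.664 were called lower in the KO-labelled pair, where Ccl5 was 15.2-fold higher. The Ccl9 call ended at 0.887 with clusters and 0.725 with 1 more marker, and Ccl5 was 81.1-fold higher without the top cells and not called with thinned cells. In the WT-labelled pair the further call was Ccl6, 2.14-fold higher. Of all genes in monocytes, 16.6% were called higher and 17.9% lower in the KO-labelled pair, and 15.2% and 19.7% in the WT-labelled pair. Marrow was enriched for progenitors and spleen for CD45+ cells, so tissue and enrichment cannot be told apart.

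Between the KO-labelled and WT-labelled tumors there were 17 calls over 6 classes, all of them higher in the KO-labelled library. The T cells are counted in 2 of these classes, alone and pooled with NK cells, so that Ccl5 is called in both. Carcinoma cells are named by the label of the mice that bore them, not by a genotype of the tumor line. The Ccl2 level of carcinoma cells, 191.5 CPM (185.4 to 197.7) in the KO-labelled and 27.1 CPM (25.1 to 29.2) in the WT-labelled library, differed by 7.07-fold (6.51 to 7.69). The share of carcinoma cells with a Ccl2 UMI after thinning was 7.39% in the KO-labelled and 1.67% in the WT-labelled library, and unthinned 29.6% and 15.1%. The single cell with the most Ccl2 held 523 UMIs, 13.9% of the KO-labelled total, and without the top cell of each library the ratio was 7.002. Both thinned shares are at or below those of tumor T cells, 8.66% in the KO-labelled and 5.56% in the WT-labelled library, so the shares are not read as a difference in how many cells express the gene. Ccl7, the neighbour of Ccl2, was at 10.7 CPM in KO-labelled and 7.42 CPM in WT-labelled carcinoma cells and was not called. Per Ccl7 UMI there were 17.8 Ccl2 UMIs in KO-labelled and 3.65 in WT-labelled carcinoma cells, against 1.31 and 1.31 in macrophages and 1.26 and 1.55 in neutrophils of the same libraries.

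Carcinoma cells were called higher for 6 of 9 members, where 4.09% of 10213 genes were called higher and 0.734% lower. Beside Ccl2 these were Ccl8 (2.95-fold), Ccl3 (2.39-fold), Ccl9 (2.34-fold), Ccl6 (2.26-fold) and Ccl4 (1.63-fold), all at levels under 30 CPM. For Ccl6 a single cell held 195 UMIs, and without the top cells the ratio was 1.53. The Ccl6 call ended under 3 of 10 alternatives, with a ratio as low as 1.16, and with thinned cells no call but that of Ccl2 remained. Carcinoma cells are not a target of CD45 enrichment, and the labels do not say how they came into the libraries.

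Tumor neutrophils were called higher in the KO-labelled library for 3 of 7 members, where 5.13% of 2360 genes were called higher and 4.53% lower. Ccl8 was at 205.3 CPM (179.7 to 233.6) in the KO-labelled and 75.9 CPM (59.0 to 96.0) in the WT-labelled library, a ratio of 2.71 (2.06 to 3.59). Tumor T cells held 60 Ccl8 UMIs in the KO-labelled and 5 in the WT-labelled library, 163.3 and 25.4 CPM, too few to be called. Per Ccl2 UMI there were 1.17 Ccl8 UMIs in KO-labelled and 0.342 in WT-labelled neutrophils, against 1.71 and 0.556 in T cells and 0.364 and 0.266 in macrophages. The macrophage markers in these neutrophils were lower in the KO-labelled library, 1093 against 1266 CPM in the WT-labelled one. Ccl4 was 1.73-fold higher (1.66 to 1.81) and Ccl3 1.55-fold higher (1.48 to 1.63). The Ccl3 call ended, at 1.43-fold to 1.46-fold, with thinned cells, with classes from clusters and with 1 more marker required.

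Tumor macrophages were called higher for 3 of 9 members, where 1.64% of 8241 genes were called higher and 2.26% lower. Ccl8 was 1.72-fold, Ccl5 1.75-fold and Ccl12 1.55-fold higher in the KO-labelled library, while Ccl2, Ccl3, Ccl4, Ccl6, Ccl7 and Ccl9 were not called. The Ccl8 call ended at 1.41-fold with classes from clusters, and Ccl12 held under 6 and Ccl5 under 7 of 10 alternatives. Monocytes were called higher for 2 of 9, Ccl5 (2.82-fold, 2.31 to 3.47) and Ccl7 (1.53-fold), where 2.71% of genes were called higher and 3.98% lower. The Ccl7 call ended under 6 of 10 alternatives, at 1.47-fold without the top cells. The Ccl5 ratio was 1.64 with 1 more marker, and 1 cell held 27.6% of the KO-labelled UMIs.

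In tumor T cells Ccl5 was 14.0-fold higher (8.79 to 23.9) in the KO-labelled library, the 1 call among 3 members read, where 8.85% of 836 genes were called higher and 3.11% lower. The ratio was 8.37 with doublets kept and 2.63 with classes from clusters, still called under each. In T and NK cells pooled, Ccl5 was at 1767 CPM in the KO-labelled and 399.3 CPM in the WT-labelled library, 4.43-fold higher (3.72 to 5.30). Ccl3 was also called there, 1.78-fold higher, giving 2 calls among 4 members, where 8.16% of genes were called higher and 3.44% lower. One cell held 81 of the 154 Ccl3 UMIs of the KO-labelled class, and without the top cells the Ccl3 call ended and Ccl4 was called, 2.51-fold higher.

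**Figure D4:**
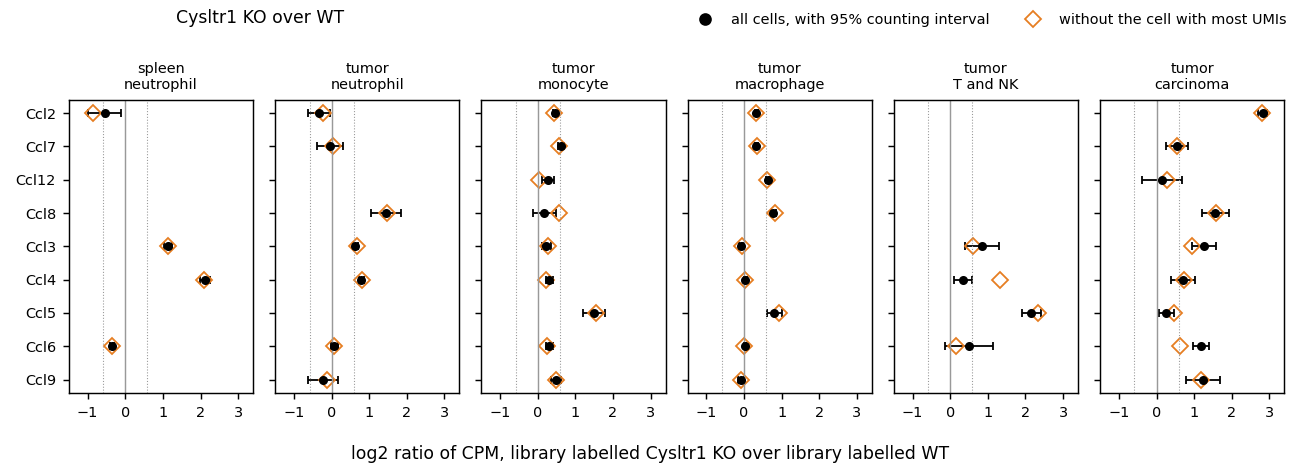
Log2 ratio of the KO-labelled over the WT-labelled library for members with at least 100 UMIs, in spleen neutrophils and 5 tumor classes. Black dots with bars are ratios with 95% counting intervals, orange diamonds the ratio without the cell with the most UMIs in each library, and dotted lines mark 1.5-fold either way. Ccl2 in carcinoma cells at 7.07-fold and Ccl4 in spleen neutrophils at 4.35-fold lie far outside the lines.

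Between the spleens there were 8 calls, 7 higher and 1 lower in the KO-labelled library. Neutrophils held the 2 of them with the most UMIs, 2 of 4 members read, where 6.54% of 4937 genes were called higher and 3.71% lower. Ccl4 was at 611.6 CPM (582.1 to 642.2) in KO-labelled and 140.6 CPM (131.2 to 150.5) in WT-labelled neutrophils, a ratio of 4.35 (3.998 to 4.737). Ccl3 was at 566.5 CPM (538.2 to 596) and 259.3 CPM (246.4 to 272.6), a ratio of 2.19 (2.03 to 2.35). After thinning, Ccl4 was detected in 17.7% of KO-labelled and 7.06% of WT-labelled spleen neutrophils and Ccl3 in 26.8% and 16.0%, against 0.352% and 0.344% for Ccl4 and 0.493% and 0.344% for Ccl3 in B cells. Unthinned, Ccl4 was in 22.2% and 9.16% and Ccl3 in 37.4% and 23.5% of neutrophils, at median depths of 2367.5 UMIs in the KO-labelled and 2245 in the WT-labelled library. Both calls held under all 10 alternatives.

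Other spleen classes had fewer and less stable calls. T cells were called higher for Ccl4 (1.93-fold) and Ccl3 (2.32-fold; 1.12-fold to 1.40-fold where the call ended), 2 of 3 members, where 1.15% of 9442 genes were called higher and 1.61% lower. Monocytes were called for Ccl5, 1.52-fold higher and held under 3 of 10 alternatives, and for Ccl4, lower at a ratio of 0.533 (0.434 to 0.651) and held under 6, 2 of 6 members, where 4.07% of genes were called higher and 1.9% lower. Macrophages were called higher for Ccl4, 1 of 2 members, where 4.16% of genes were called higher and 3.45% lower. There 1 cell held 145 of the 199 Ccl4 UMIs, and without the top cells the ratio was 0.802.

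Immature neutrophils of the spleen were called higher for Ccl6 (1.77-fold; turned to a log2 ratio of −0.42 with classes from clusters), 1 of 2 members, where 1.3% of genes were called higher and 1.53% lower. NK cells, with 3 members read, and dendritic cells, with 4, had no call, where 1.63% and 2.16% of genes were called higher and 0.817% and 1.14% lower. B cells had no member with 100 UMIs. Ccl2 in spleen neutrophils, at 22.7 CPM in the KO-labelled and 33.1 CPM in the WT-labelled library, was not called, and was called lower at a ratio of 0.551 without the top cells.

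Marrow had 4 calls, 2 higher and 2 lower in the KO-labelled library. Mature neutrophils were lower for Ccl3, at 57.4 CPM in the KO-labelled and 103.9 CPM in the WT-labelled library, and for Ccl4, at 57.8 and 197.1 CPM, 2 of 3 members, where 1.5% of 2532 genes were called higher and 3.28% lower. Without the top cells the Ccl4 ratio was 0.521 in place of 0.293, and averaging cells turned Ccl3 to a log2 ratio of 0.56. The Ccl3 call held under 5 and the Ccl4 call under 8 of 10 alternatives. Immature neutrophils were called higher for Ccl4, at 38.2 CPM in the KO-labelled and 4.29 CPM in the WT-labelled library, 1 of 2 members, where 1.41% of genes were called higher and 1.98% lower. Only 10 of 515 KO-labelled and 9 of 222 WT-labelled immature neutrophils held a Ccl4 UMI, and with doublets kept the log2 ratio was −0.72. A single KO-labelled cell held 61 of the 116 Ccl4 UMIs, and the call held under 5 of 10 alternatives.

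Granulocyte-monocyte progenitors were called higher for Ccl5, at 10.1 CPM in the KO-labelled and 3.09 CPM in the WT-labelled marrow, 1 of 5 members, where 1.3% of 9979 genes were called higher and 1.81% lower. The ratio of 3.26 was 1.70 with doublets kept, 1.68 with clusters and 5.92 without the top cells, of which the WT-labelled one held 59.3% of the UMIs, and the call ended with thinned cells. In both libraries few of these cells carried it, 21 of 1653 in the KO-labelled and 7 of 2022 in the WT-labelled marrow. Basophils and mast cells, the marrow class highest in Ccl3 and Ccl4, had none of 4 members called, where 2.35% of genes were called higher and 1.66% lower. Monocytes had none of 5, stem and early progenitor cells none of 3 and T and NK cells none of 3, where 2.08%, 0.605% and 1.38% of genes were called higher and 1.24%, 1.18% and 2.07% lower.

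Genes listed as receptors of these chemokines were read in the same classes, and 4 of them are given. Ccr1, a receptor for Ccl3, Ccl5, Ccl6 and Ccl9, was in neutrophils at 451.5 and 364.4 CPM in marrow, 1228 and 880.9 CPM in spleen and 809.7 and 666.4 CPM in tumor, the KO-labelled library before the WT-labelled one. Ccr2 was in monocytes at 697.2 and 602.6 CPM in marrow, 710.9 and 672.8 CPM in spleen and 255.8 and 220.5 CPM in tumor, where its ligands Ccl2, Ccl7 and Ccl12 were highest. Ccrl2, a receptor that binds ligands without signalling, is on that list, but its binding of these members was not examined. Its level was 4826 and 2903 CPM in spleen and 3788 and 2580 CPM in tumor neutrophils. Ccr8, the receptor of mouse Ccl8, was in tumor T cells at 57.2 CPM in the KO-labelled and 101.4 CPM in the WT-labelled library.

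Genes that respond to the same stimuli as some of the chemokines were counted beside them. Of 12 targets of interferon gamma, 9 of 9 read were higher in KO-labelled spleen neutrophils, with a median log2 ratio of 1.51 against 0.09 over all genes read. In tumor neutrophils 9 of 10 were higher (median 1.41, all genes −0.08), in tumor macrophages 7 of 12 (median 0.61, all genes −0.01) and in carcinoma cells 11 of 11 (median 1.07, all genes 0.03). Examples in spleen neutrophils were Irf1, at 521.1 CPM in the KO-labelled and 277.8 CPM in the WT-labelled library, and Gbp2, at 455.9 and 195.4 CPM. In spleen monocytes, where Ccl4 was lower in the KO-labelled library, 9 of 10 were higher (median 2.03, all genes 0.03). In marrow neutrophils none of 2 read was higher and 1 was lower. In marrow monocytes 3 of 6 were higher and none lower (median 0.78, all genes −0.01). In granulocyte-monocyte progenitors 1 of 8 was higher (median −0.02, all genes −0.07). Of all genes read, 6.54% were called higher in spleen neutrophils, 5.13% in tumor neutrophils and 1.64% in tumor macrophages. The shares were 4.09% in carcinoma cells and 4.07% in spleen monocytes. In marrow they were 1.5% in neutrophils, 2.08% in monocytes and 1.3% in these progenitors.

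Of 12 targets of NF-kB, the factor that inflammatory stimuli switch on, 7 of 12 were higher in KO-labelled spleen neutrophils (median 0.67) and 1 of 12 in tumor neutrophils (median 0.29), and 1 of 6 read in marrow neutrophils (median 0.36). Of all genes read, 6.54%, 5.13% and 1.5% were called higher in these classes, in the same order. Il1b in spleen neutrophils was at 12630 CPM in the KO-labelled and 7024 CPM in the WT-labelled library, and Cxcl2 at 18280 and 14860 CPM. Between tumor and spleen neutrophils, 7 of 12 were higher in the tumor in the KO-labelled and 9 of 12 in the WT-labelled pair, with medians of 0.76 and 0.96 against −0.32 and −0.12 over all genes, of which 26.3% and 27.7% were called higher. Between spleen and marrow neutrophils all 12 were higher in the spleen in both pairs, with medians of 3.65 and 2.85 against 0.47 and 0.33 over all genes, of which 42.3% and 30.3% were called higher. In monocytes all 12 were also higher in the spleen in both pairs, with medians of 2.52 and 1.75. Of all genes in these monocytes 16.6% and 15.2% were called higher, and Ccl2 and Ccl3 were called lower. In KO-labelled tumor macrophages none of 12 was higher and 1 was lower, where 1.64% of genes were called higher and 2.26% lower. In spleen T cells none of 11 was higher and 2 were lower (1.15% and 1.61% of genes), and in spleen macrophages 4 of 8 were higher (4.16%).

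The genes whose levels followed each member most closely over 45 points, each 1 class in 1 library, were found among 8058 genes by Pearson's r of log2(CPM + 1). The points share libraries and depth, so r is only a description. Ccl3 and Ccl4 were each other's closest gene (r = 0.926), ahead of Fxyd5 and Dhrs3. Ccl7 went with Arg1 (0.980), Cxcl14 (0.979) and Folr2 (0.966), Ccl8 with Arg1 (0.968), Folr2 (0.961) and Ccl7 (0.952), and Ccl12 with Ccl7 (0.947), Ccl8 (0.939) and Folr2 (0.936). Ccl2 went with Msr1 (0.915), Cstb (0.903) and Colec12 (0.893).

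Ccl5 followed Klrk1 (0.884), Adora2a (0.872) and AW112010 (0.867), the first of which encodes the activating receptor NKG2D of NK and T cells. Ccl6 followed Nlrp3 (0.932), Cxcl2 (0.893) and Gabarap (0.868), and Ccl9 followed Cebpa (0.864), Nrg1 (0.799) and F13a1 (0.798). Ccl6 and Ccl9, next to each other on the chromosome, were not among each other's 3 closest genes.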

How the data were processed

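The authors deposited UMI counts per gene and cell for 6 libraries made with 10x Genomics kits. Per the file headers the matrices came from Cell Ranger 6.1.0, whereas version 6.0.0 with mm10 stands in the submitters' processing notes. The kit, 5′ or 3′, could not be settled, since per the labels' protocols there were 2 of them. The libraries held 5852 to 9740 barcodes and 40377940 to 75873784 UMIs. The 19 antibody features in 3 libraries were left out.

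Cells needed at least 300 genes, 500 UMIs and at most 10% mitochondrial UMIs. Doublets, 0.8% per 1000 barcodes, were removed by a score against simulated doublets. A cell joined a class when it had at least 3 of its markers (2 for NK and carcinoma cells) and a factor of 2 over any other lineage; classes under 50 cells were not used. The markers were listed before this scoring rule, which was set after the data were seen. The 9 members and the gene lists were chosen with earlier results of these data known. All members were named, along with the 3 genes closest to each and up to 4 values per list.

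UMIs were summed per class, with 95% exact Poisson intervals for levels, Clopper-Pearson intervals for shares and exact conditional intervals for ratios. These cover counting error only, since 1 library per group leaves no test. For shares across depths each cell was thinned to 1000 UMIs. Only the comparison of summed counts was tested on simulated data. These were Poisson counts without single cells, doublets or spread between cells, so the other steps were not tested. Alternatives kept doublets, dropped the mitochondrial limit, thinned cells, averaged cells, took classes from clusters, asked for 1 more marker, lowered the limit to 30 UMIs, used TMM factors, raised the fold to 2 and, added after the data were seen, left out the cell with the most UMIs. Lowering the limit to 30 UMIs cannot end a call, and every count of alternatives under which a call held includes it. Python 3.11.15, numpy 2.4.6, scipy 1.17.1, scanpy 1.11.5, leidenalg 0.10.2, Biopython 1.88 and edgeR 4.0.16 (for TMM factors) were used. 1 item of the lists is not reported here.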

Additional observations from a re-analysis of the deposited data

Results flagged for a closer look

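The difference between the KO-labelled and WT-labelled neutrophils ran in opposite directions in different tissues for both Ccl3 and Ccl4, lower in the KO-labelled marrow and higher in the KO-labelled spleen and tumor. For Ccl3 the log2 ratio was 1.98 above that of marrow in the spleen and 1.49 above it in the tumor. For Ccl4 it was 3.89 above that of marrow in the spleen and 2.56 above it in the tumor. For Ccl5 in T cells the log2 ratio of tumor to spleen was 3.68 above that of the WT-labelled pair in the KO-labelled pair, higher in the KO-labelled and lower in the WT-labelled tumor. None of these differences was tested, because each group is 1 library. The Ccl3 call in neutrophils held under 5 of 10 alternatives in marrow, 6 in tumor and all 10 in spleen. With averaged cells the marrow Ccl3 log2 ratio turned to 0.56. The Ccl4 call in marrow neutrophils held under 8 of 10. A single WT-labelled marrow neutrophil held 125 of 205 Ccl4 UMIs, and the WT-labelled tumor T cells held 18 Ccl5 UMIs.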

How the results depend on the processing

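Over 10 alternatives the members called between KO-labelled and WT-labelled libraries ranged from 1 to 8 in marrow (4 as reported), 4 to 13 in spleen (8) and 8 to 20 in tumor (17). Between tumor and spleen they ranged from 21 to 31 in the KO-labelled (27) and 20 to 28 in the WT-labelled pair (25), and between spleen and marrow from 6 to 9 (7) and 4 to 9 (6). Counts moved by over 1.5 times with thinned cells (1 in marrow, 4 in spleen, 8 in tumor), with a limit of 30 UMIs (8 in marrow), with doublets kept (13 in spleen) and past 2-fold (4 in spleen, 9 in tumor). Thinning leaves fewer UMIs, so fewer members can reach the limit, but some ratios also fell below 1.5-fold. With thinned cells Ccl3 in tumor neutrophils was at 1.43-fold and Ccl5 in spleen monocytes at 1.01-fold. Other calls ended at a higher ratio, such as Ccl8 in carcinoma cells at 4.34-fold. The cause of these shifts was not tested.

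Of single ratios 5 turned round. Averaging cells gave a log2 ratio of 0.56 for Ccl3 in marrow neutrophils and −0.001999 for Ccl4 in spleen macrophages. Keeping doublets gave −0.72 for Ccl4 in immature marrow neutrophils, clusters −0.42 for Ccl6 in immature spleen neutrophils, and leaving out the top cells −0.32 for Ccl4 in spleen macrophages. All other single ratios kept their side, of which 669 stayed within their counting interval and 262 moved beyond it. The limit of 30 UMIs and the 2-fold limit cannot move a ratio, and each gave 94 of the 669. With 1 more marker, tumor T cells and some other classes fell under 50 cells and gave no value. TMM scaling shifted KO-labelled over WT-labelled ratios by −0.11 in marrow, 0.11 in spleen and −0.12 in tumor neutrophils, and by 0.11 in spleen dendritic cells. No paired analysis was possible because there is 1 library for each tissue and genotype. Depth limits the tumor neutrophils, with medians of 1407 UMIs in the KO-labelled and 1281.5 in the WT-labelled library, and the 54 WT-labelled tumor T cells.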
